A study of Mus musculus with 6 samples.

Results

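The nuclear genes for the subunits of the mitochondrial respiratory chain and ATP synthase were compared between the jejunum of mice that lacked Hnf4a in the intestinal epithelium and that of control littermates. Members were taken by gene symbol, namely symbols that start with Nduf (assembly factors named Ndufaf left out), Uqcr, Atp5 or Cox with a digit from 4 to 8, together with Sdha, Sdhb, Sdhc, Sdhd, Cyc1 and Cycs. This gave 84 of the 18193 genes measured: 36 of complex I, 4 of complex II, 9 of complex III, 17 each of complexes IV and V, and cytochrome c itself. The rule uses symbols and no measured value, though it was set with earlier results of these data known. Subunits carried only by probe sets that the platform assigns to several genes, such as Ndufa11 and Ndufs6, have no value here.

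The study comprised 3 control and 3 mutant littermates, killed at 7 months of age after an injection of ketamine and xylazine, with 1 Affymetrix array per animal. All 6 carry the strain label B6.129X1(FVB)-Hnf4atm1.1Gonz/J, a line with a loxP-flanked Hnf4a gene. In mutants, Cre under the control of a villin promoter fragment acted in the intestinal epithelium. The labels of both groups carry the name HNF4fxVilCRE, and no source used here says whether the controls carried Cre. RNA came from whole biopsies of the distal jejunum, so muscle, stroma and immune cells contributed beside the epithelium. Fewer cells of a type and less RNA per cell cannot be told apart in such samples.

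Electrons from NADH enter the chain at complex I and those from succinate at complex II, and ubiquinone carries both to complex III. Cytochrome c passes them on to complex IV, which reduces oxygen, and complex V uses the proton gradient so built to make ATP. Complexes I and III are also the main sites at which the chain leaks electrons to oxygen, which forms superoxide. The series title names reactive oxygen species. Most subunits are nuclear-encoded and imported, a few are encoded by mitochondrial DNA, and complex IV and ATP synthase subunit c exist in alternative isoforms that differ between tissues.

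Hnf4a, which encodes the deleted nuclear receptor, read 11.82, 11.76 and 11.57 (log2 signal) in controls 1, 2 and 3 and 8.83, 8.83 and 9.82 in mutants 1, 2 and 3. It fell 5.88-fold in the mutants (-2.56 ± 0.25 SE, limma, adjusted p = 0.00756). Rank correlations between arrays lay between 0.983 and 0.99. Control 3 held pancreatic acinar transcripts, with a mean of 7.96 over 7 measured markers against 4.36 to 4.54 on the other arrays. Fat markers, 10 of them measured, averaged 6.37 in mutant 2 and 5.24 to 5.56 elsewhere. The difference between the 3' and 5' probe sets of Gapdh, a measure of RNA integrity, was 0.45, 0.48 and 0.38 (log2) in the controls and 0.71, 0.29 and 0.58 in the mutants.

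None of the 84 genes passed the test over all genes (limma, adjusted p under 0.05). The lowest adjusted p was 0.221, while 0.528% of all genes passed, and 0.33% of all genes passed in the downward direction. Differences were small and mostly of 1 sign: the mutant mean lay below the control mean for 74 of 84 members and above it for 10. The median log2 difference was -0.12, where the median of all 18193 genes was -0.013 and 53.3% of them lay below the control mean. At an unadjusted p under 0.05, 4 members were lower and 0 higher in limma's test, which is 4 of 84 against 6.85% of all genes lower and 12.1% in either direction. All 3 mutants lay below all 3 controls in 13 members (15.5%), against 10.2% of all genes, and above all controls in Ndufb1 alone. With dim genes left out, these shares were 16.7% of members and 13.7% of genes. In that fit 5.13% of members and 16.5% of genes had an unadjusted p under 0.05 in limma. Neither count kept its side of the background in every fit. After quantile normalisation 7.14% of members were without overlap against 9.36% of all genes, and the median difference was -0.074. Without mutant 2, 15.5% of members had an unadjusted p under 0.05 in limma against 12.2% of all genes. The share of members below the control mean was 88.1%, and its difference from the 53.3% of all genes was not tested.

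The precision of each difference was close to that of other genes, with a median standard error (SE) of 0.12 on the log2 scale against 0.13 over all genes. The 95% interval of every member, unadjusted for the number of genes, lay inside a 2-fold change in either direction. For 67 of 84 members its lower bound was above -0.5. For 78 members at least 1 group mean reached the median gene (5.42), and their intervals ran from -0.72 to 0.48. The other 6, namely Ndufb4, Cox4i2, Cox6b2, Cox7b2, Cox7c and Cox8b, were dim in both groups, where a difference in signal says little about the transcript.

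**Figure D1:**
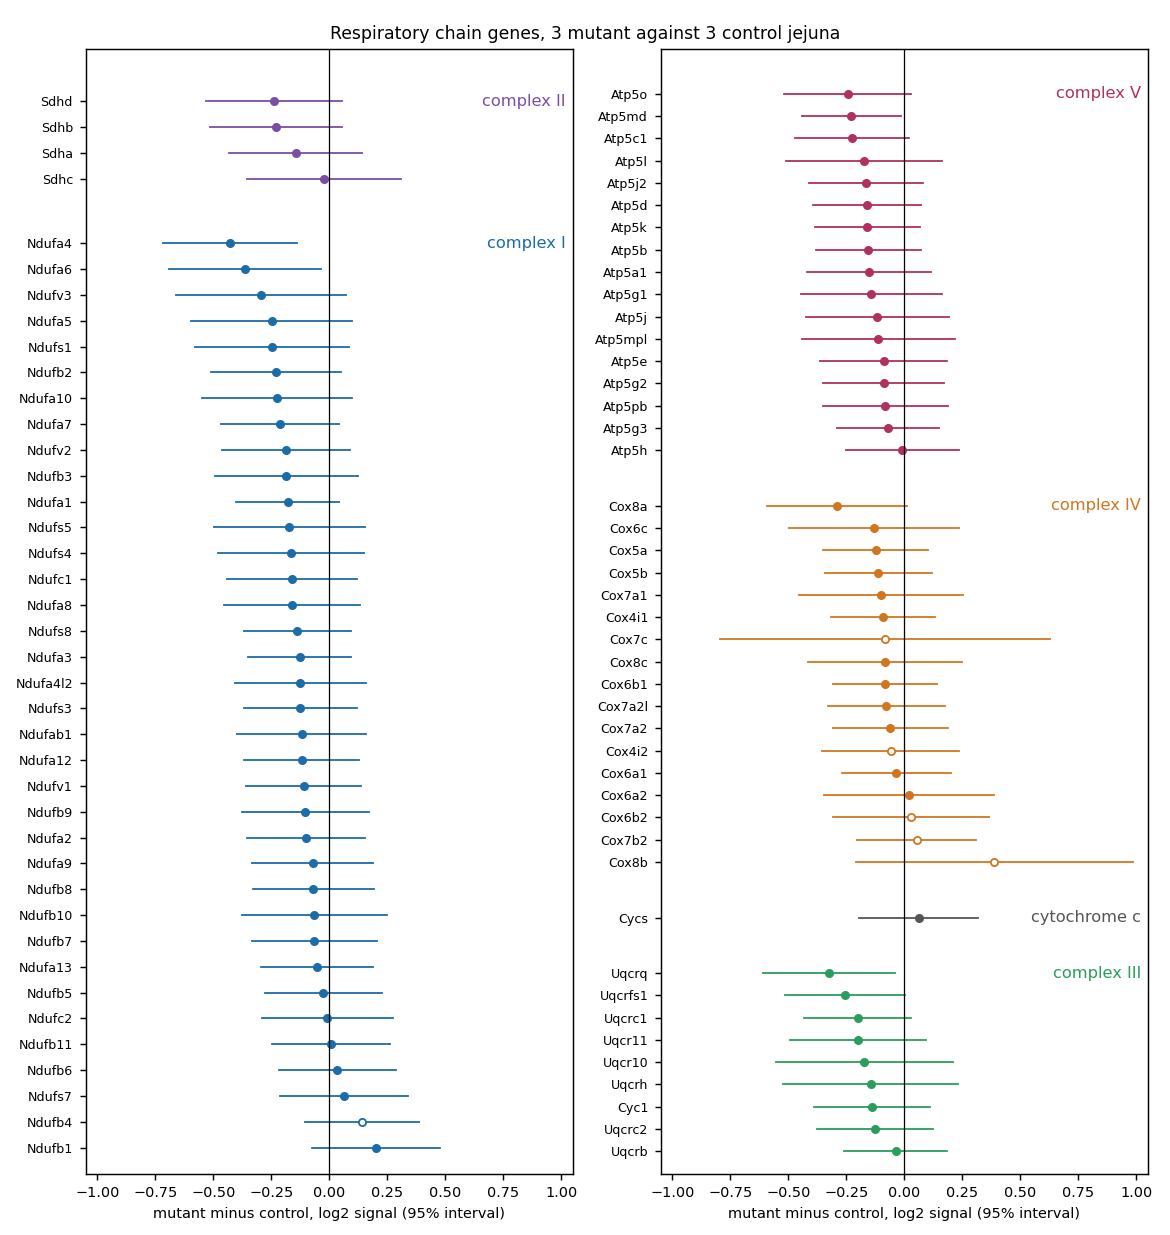
Log2 difference of each respiratory chain gene between 3 mutants and 3 controls (points), with its 95% interval from limma (lines), grouped by complex. Open points mark the 6 genes dim in both groups. Most points lie left of 0, and the intervals of 4 genes, Ndufa4, Ndufa6, Uqcrq and Atp5md, exclude 0 before adjustment.

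Promoters were examined for what the members share beyond their names. RefSeq windows from 250 bases before to 50 bases after the transcript start (GRCm38.p6) were found for 68 of the 84 genes. Fixed short motifs were searched on both strands: GCGCATGC for NRF1 and CCGGAAG for ETS factors such as GABP, both known regulators of respiratory genes, AAGATGGC for YY1, TCAAGGTCA for ERR receptors and CAAAGTCCA for HNF4. The windows had a median GC content of 58.7% against 52.7% over all windows in the table, which also moves such counts. The NRF1 letters were in 14.7% of the 68 members, in 4.7% of the 14368 measured genes with a window and in 2.71% of all 32851 windows. For ETS these shares were 25%, 15% and 8.86%, and for YY1 13.2%, 4.09% and 2.75%. The ERR letters were in 2 members, Sdhd and Atp5g3 (2.94%, 0.404% and 0.423%). The HNF4 letters were in 0 of 68 members, in 0.592% of the measured genes and in 0.475% of all windows. No test of these shares was made.

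A match is a description of letters and not a binding site. Members with the NRF1 letters had a median difference of -0.17 (9 of 10 below the control mean), those with ETS -0.14 (16 of 17), those with YY1 -0.12 (8 of 9) and the 37 members with none of the 5 motifs -0.12 (31 of 37). Differences between these medians were not tested. The windows below are those of the genes with an unadjusted p under 0.05 that have an entry, and of Cycs, the carrier that did not share their direction. Each runs from 250 bases before the start to 30 bases after it, 5′ to 3′ on the strand of the gene, with capitals where a searched motif matches. Ndufa4 (chr6:11907421-11907700) has no match. Ndufa6 (chr15:82354262-82354541) and Cycs (chr6:50566540-50566819) hold the NRF1 letters on the opposite strand, from 83 and 60 bases before the start. Atp5md (chr19:47090618-47090897) holds the ETS letters on the opposite strand, from base 3 after the start. All 4 genes lie on the minus strand.
Ndufa4: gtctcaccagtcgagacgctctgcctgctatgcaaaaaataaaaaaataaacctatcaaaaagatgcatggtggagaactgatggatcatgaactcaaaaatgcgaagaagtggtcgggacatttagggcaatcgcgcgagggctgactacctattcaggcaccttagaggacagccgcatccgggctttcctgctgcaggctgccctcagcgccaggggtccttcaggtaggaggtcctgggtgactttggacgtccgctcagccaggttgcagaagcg
Ndufa6: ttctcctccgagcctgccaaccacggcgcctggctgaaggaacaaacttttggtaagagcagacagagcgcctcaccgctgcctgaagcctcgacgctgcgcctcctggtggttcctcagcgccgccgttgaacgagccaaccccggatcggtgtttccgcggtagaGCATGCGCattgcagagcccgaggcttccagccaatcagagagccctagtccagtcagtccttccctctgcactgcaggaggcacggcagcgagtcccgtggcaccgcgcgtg
Atp5md: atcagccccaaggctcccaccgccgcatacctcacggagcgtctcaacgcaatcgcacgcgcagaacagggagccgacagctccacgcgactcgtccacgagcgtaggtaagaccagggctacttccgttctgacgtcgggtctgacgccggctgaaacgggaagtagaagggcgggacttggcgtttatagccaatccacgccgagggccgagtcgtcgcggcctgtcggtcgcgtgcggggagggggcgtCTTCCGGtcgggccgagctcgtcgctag
Cycs: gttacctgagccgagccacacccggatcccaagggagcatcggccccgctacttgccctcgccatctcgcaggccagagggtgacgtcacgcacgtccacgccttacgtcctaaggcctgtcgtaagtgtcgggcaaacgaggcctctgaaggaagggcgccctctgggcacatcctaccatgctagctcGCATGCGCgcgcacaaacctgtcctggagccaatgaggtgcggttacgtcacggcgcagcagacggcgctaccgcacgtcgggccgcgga
Ndufa6 and Cycs thus carry the same 8 letters near their start, and their signals differed between groups by -0.36 and 0.06.

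Complex I, the NADH dehydrogenase, had 31 of 36 members below the control mean and a median difference of -0.12. Its differences ran from -0.43 for Ndufa4 to 0.20 for Ndufb1. Ndufa4 lay lowest of all members. Its product was long counted in complex I and is now placed in complex IV. It read 10.42, 10.57 and 10.53 in the controls and 9.85, 10.16 and 10.23 in the mutants. The groups did not overlap, and mutant 1 stood lowest. The difference was -0.43 ± 0.13 SE, or 1.35-fold lower, and it missed the threshold (adjusted p = 0.221). Without Ndufa4, complex I had 30 of 35 members below the control mean and the median was again -0.12.

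Ndufa6 encodes a small accessory subunit of the LYR family. It read 10.72, 11.02 and 10.92 in the controls and 10.33, 10.77 and 10.47 in the mutants. Mutant 2 lay above control 1, so the groups overlapped, and the difference was -0.36 ± 0.14 SE (adjusted p = 0.357). Ndufa7, an accessory subunit with 5 probe sets on the array, differed by -0.21 at its brightest probe set and by -0.24 to -0.29 at the other 4, which share a transcript and are no independent measurement. Ndufb2 and Ndufa1, both membrane-bound accessory subunits, differed by -0.23 and -0.18. These 3 genes had adjusted p of 0.51 to 0.525, and Ndufa7 and Ndufa1 were without overlap between groups. Ndufv3, the small accessory subunit beside the flavoprotein, also had no overlap between groups and differed by -0.30, with mutant 3 at 10.71 and the other mutants near 11.25.

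The functional parts of complex I can be set side by side. From the arm tip that oxidises NADH, the 4 genes Ndufv1, Ndufv2, Ndufv3 and Ndufs1 were all below the control mean, with a median of -0.22. They are not all the subunits of that tip. Ndufs3, Ndufs7, Ndufs8 and Ndufa5, which belong to the part that passes electrons to ubiquinone, had 3 of 4 below and a median of -0.13. All 13 Ndufa genes, a group by symbol that includes Ndufa4 and its relative Ndufa4l2, lay below the control mean with a median of -0.16. The 11 Ndufb genes, most of them accessory subunits of the membrane arm, had 7 below and 4 above with a median of -0.065. These medians depend on the choice of probe set. Ndufb5, Ndufb7, Ndufb9 and Ndufb2 differed by -0.026, -0.065, -0.10 and -0.23 at the brightest probe set. Another probe set of each above the median gene gave -0.29, -0.17, -0.21 and -0.24. Among Ndufa genes, Ndufa12 differed by -0.12 at the brightest and by -0.036 and 0.13 at other bright probe sets. Whether these parts differ from each other was not tested. Of the 5 complex I genes above the control mean, Ndufb1 differed by 0.20, Ndufb4 by 0.14, Ndufs7 by 0.06, Ndufb6 by 0.03 and Ndufb11 by 0.0087, with adjusted p from 0.579 to 0.987. Ndufb1 read 6.45, 6.19 and 6.42 in controls and 6.46, 6.49 and 6.71 in mutants, far below most genes of the complex. For Ndufs7, Ndufb6 and Ndufb11, every other probe set above the median gene lay on the opposite side, at -0.095, -0.13, and -0.16 and -0.068.

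Complex II, succinate dehydrogenase, links the chain to the tricarboxylic acid cycle and is the sole complex with no subunit from mitochondrial DNA. All 4 members lay below the control mean, with a median of -0.19. Sdhb, the iron-sulfur subunit, read 11.83, 11.79 and 11.94 in controls and 11.52, 11.85 and 11.50 in mutants, a difference of -0.23 ± 0.12 SE (adjusted p = 0.524). Mutants 1 and 3 were below all controls, whereas mutant 2 lay within their range. Sdhd, a membrane anchor, showed the same arrangement, with 10.96, 10.83 and 11.03 against 10.49, 10.89 and 10.73 (-0.24 ± 0.13 SE). A second, dimmer probe set of Sdhd, at a mean of 7.73, gave 0.087. Sdha, the flavoprotein, differed by -0.15 and the other anchor Sdhc by -0.023, with adjusted p of 0.723 and 0.971.

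Complex III, the cytochrome bc1 complex, had all 9 members below the control mean and a median of -0.17. Uqcrq, a small subunit named for ubiquinone binding, read 11.13, 10.88 and 11.11 in controls and 10.55, 10.87 and 10.73 in mutants, a difference of -0.32 ± 0.12 SE (adjusted p = 0.343). Control 2 and mutant 2 all but met, and the other mutants lay clearly lower. Of its 3 further probe sets, 2 were below the median gene, and the remaining one, at a mean of 6.34, differed by 0.07. Uqcrfs1, the Rieske iron-sulfur protein, differed by -0.26 and Uqcrc1, a core protein, by -0.20, with no overlap between groups in either (adjusted p = 0.417 and 0.486). Uqcr11 differed by -0.20 and Cyc1, the cytochrome c1 gene, by -0.14.

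Cytochrome c, the mobile carrier encoded by Cycs, lay above the control mean. Its values were 12.45, 12.23 and 12.51 in controls and 12.39, 12.54 and 12.44 in mutants, so the mutants fell within or just above the control range. The difference was 0.06 with a 95% interval from -0.19 to 0.32 (adjusted p = 0.889). Its other 2 bright probe sets differed by -0.032 and 0.099.

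Complex IV, cytochrome c oxidase, had the smallest median of the 5 complexes, -0.084, with 13 of 17 members below the control mean. Not 1 of these 17 genes had all mutants below all controls, against 10.2% of all genes. Of the 17, 5 were dim in both groups. With Ndufa4 counted here, 14 of 18 lay below, 1 was without overlap, and the median was again -0.084. Next to Ndufa4, Cox8a, the widely expressed form of subunit 8, lay lowest. It read 10.82, 11.01 and 10.97 in controls and 10.44, 10.86 and 10.62 in mutants (-0.29 ± 0.13 SE, adjusted p = 0.435), and a second bright probe set gave -0.26. Mutant 2 lay above control 1 and the other mutants below all controls. Cox5a, Cox5b and Cox4i1, which encode further subunits found in most tissues, differed by -0.12, -0.11 and -0.09, with adjusted p from 0.699 to 0.787. The 3 other bright probe sets of Cox5b gave -0.13 to -0.016, and those of Cox5a gave 0.013 and -0.052.

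Among the isoforms, the 10 widely expressed genes were all below the control mean (median -0.088), and the 7 with restricted expression split into 3 below and 4 above (median 0.018). Of the latter, 4 were dim in both groups. Without dim genes the medians were -0.092 over 9 widely expressed genes and -0.084 over 3 restricted ones, 2 of them below. Cox7a1, the heart and skeletal muscle form of subunit 7a, gave clear signal in this tissue. It read 9.82, 9.67 and 10.16 in controls and 9.64, 9.99 and 9.71 in mutants, highest in control 3 and mutant 2. Those 2 arrays also had the highest mean over the 11 smooth muscle markers, 10.0 in control 3 and 9.99 in mutant 2 against 9.71 to 9.84 elsewhere. The part of muscle content in this was not tested. Its counterpart Cox7a2 lay at 12.52 to 12.72 in controls and 12.43 to 12.65 in mutants, a difference of -0.06 against -0.10 for Cox7a1.

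Cox8b, the form of subunit 8 used in heart, skeletal muscle and brown fat, was the member farthest above the control mean, at 0.39 ± 0.26 SE (adjusted p = 0.627). It read 3.63, 3.87 and 3.93 in controls and 4.25, 4.74 and 3.59 in mutants, below the median gene (5.42) throughout. The highest value was that of mutant 2, the array with fat transcripts, where Cidea, a brown fat marker, read 5.56 against 3.74 to 4.33 elsewhere. Ucp1, which defines brown fat, stayed between 2.77 and 2.99 on all arrays. The part of fat in the Cox8b value was not tested. Cox6a1, Cox6b1 and Cox7a2l differed by -0.034, -0.083 and -0.077. Cox6a2, the muscle form of subunit 6a, and Cox6b2 and Cox8c, both known from testis, differed by 0.018, 0.03 and -0.084. Cox4i2, a form known from lung, differed by -0.06, and Ndufa4l2, a relative of Ndufa4 induced by low oxygen, by -0.12.

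**Figure D2:**
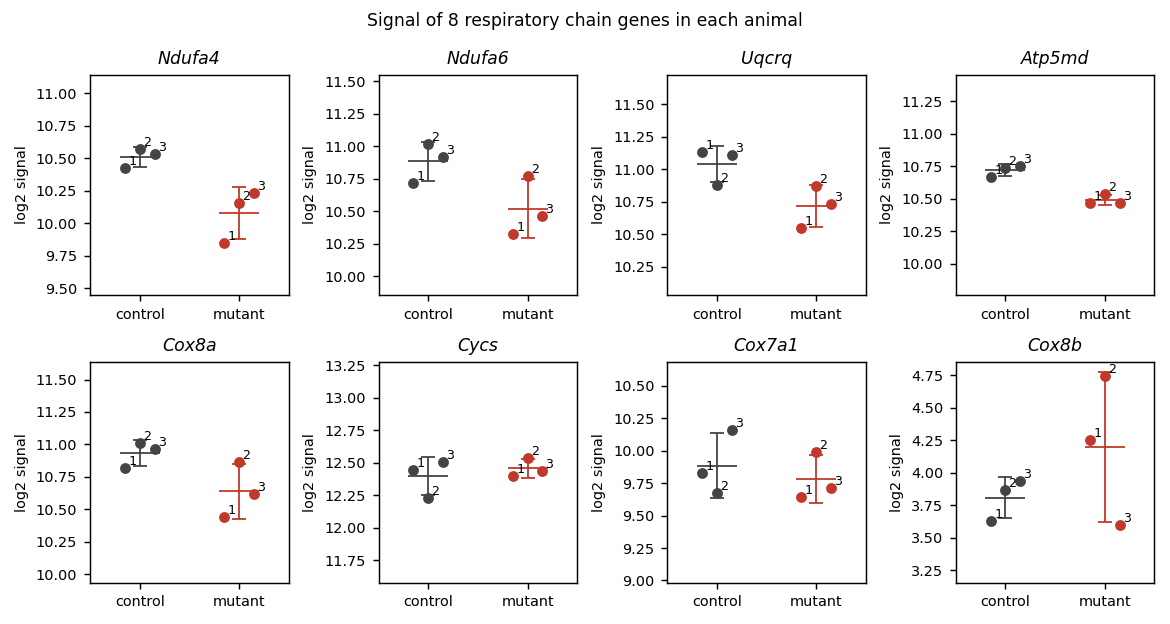
Log2 signal (vertical axis, a span of the same size in each panel) of 8 genes in each of 3 controls (grey) and 3 mutants (red), numbered by animal, with group means and SD (bars). Ndufa4 and Atp5md separate the groups clearly, mutant 2 reaches the control range for Ndufa6 and Cox8a, and Cox8b is highest in mutant 2.

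Complex V, the ATP synthase, had all 17 members below the control mean, with differences from -0.24 to -0.0086 and a median of -0.15. Atp5md encodes a small membrane subunit linked to the pairing of ATP synthase complexes. It read 10.67, 10.74 and 10.76 in controls and 10.47, 10.53 and 10.47 in mutants. The groups were apart, and the spread within each was small, at 10.72 ± 0.05 (SD, n = 3) and 10.49 ± 0.04 (SD, n = 3). The difference of -0.23 ± 0.09 SE missed the threshold (adjusted p = 0.369).

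In the catalytic head of the synthase, Atp5a1, Atp5b, Atp5c1, Atp5d and Atp5e differed by -0.09 to -0.23, with a median of -0.16. Atp5c1, the rotating gamma subunit, read 12.49, 12.63 and 12.67 in controls and 12.26, 12.47 and 12.38 in mutants (-0.23 ± 0.11 SE, adjusted p = 0.459), without overlap. Atp5o, a stalk subunit that attaches to the head, differed by -0.24, and Atp5k and Atp5d by -0.16 each, with adjusted p from 0.478 to 0.599. A second, dimmer probe set of Atp5o, at a mean of 10.2, gave 0.036. Other bright probe sets gave -0.25 for Atp5d, and -0.13 and -0.086 for Atp5k. Subunit c, whose ring turns in the membrane, is made from 3 genes. Atp5g1, Atp5g2 and Atp5g3 differed by -0.14, -0.089 and -0.072, and no pair of groups was apart.

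The arrays of each group differed among themselves in these genes. Over the 84 members, the median deviation of an array from the mean of all 6 was 0.0035, 0.029 and 0.15 in controls 1, 2 and 3 and -0.13, 0.065 and -0.11 in mutants 1, 2 and 3. With dim genes left out, the same median over 9309 genes was 0.0056, 0.019 and 0.018 in controls and -0.061, 0.041 and -0.019 in mutants. Control 3 was the highest of the 6 arrays in 53 of 84 members (63.1%), against 13.7% of all genes. Mutant 1 was the lowest in 42 (50%) and mutant 3 in 29 (34.5%), against 22.7% and 21.8% of all genes. Set against the control mean, mutant 1 was lower for 70 members and mutant 3 for 75, by medians of -0.19 and -0.17. Mutant 2 was lower for 43 of 84, by a median of -0.0062. Mutants 1 and 3 therefore lay below all controls in 57 and 64 members and mutant 2 in 19, while over all genes these shares were 35.7%, 32.9% and 29.5%.

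The pattern of the arrays was alike across complexes I, II, III, IV and V, with mutants 1 and 3 low, control 3 highest and mutant 2 above the mean in each. It was widest in complexes II and III, where mutant 1 deviated by -0.23 in each and control 3 by 0.19 and 0.21, and narrowest in complex IV, at -0.079 and 0.071. Without mutant 2, the median difference of the 84 genes was -0.19 in place of -0.12, and 49 members had both remaining mutants below all controls, against 17.5% of all genes. Without control 3 the median was -0.078, and without mutant 1 it was -0.083. Without control 3 and mutant 2 together it was -0.14 with 72 of 84 below the control mean. Not 1 member passed the test in any of these fits.

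Other measures also differed between the arrays. The Gapdh difference between 3' and 5' probe sets given above was highest in mutants 1 and 3 and lowest in mutant 2 and control 3, the reverse of the order of the respiratory chain genes at both ends. For actin it was 0.39, 0.66 and 0.44 in controls and 0.73, 0.42 and 0.47 in mutants, highest in mutant 1, but with control 2 next and control 1 lowest. Means over 17 enterocyte markers were 12.47 to 12.56 in controls and 12.25, 12.40 and 12.25 in mutants 1, 2 and 3. Their median deviation from the mean of the arrays was 0.11, 0.024 and 0.076 in controls and -0.078, 0.0085 and -0.027 in mutants. Mutant 2 was thus the highest mutant by both measures, below the controls by the means and close to control 2 by the median deviation. Of the 17, 15 (88.2%) lay below the control mean, against 53.3% of all genes. Their differences ran from -1.23 for Fabp1 to 0.33 for Cdh1, which had all mutants above all controls, with a median of -0.13. Enterocyte content and the regulation of these genes themselves cannot be told apart here. Hnf4a itself did not follow the order of the mutants in the respiratory chain genes. It was as low in mutant 2 as in mutant 1 and highest among mutants in mutant 3. No marker of another cell type passed the test, and the array means of these lists overlapped between the groups. All 11 T cell and intraepithelial lymphocyte markers lay above the control mean, with array means of 6.97, 5.69 and 6.32 in controls and 6.80, 7.48 and 7.08 in mutants. So did 8 of 9 B and plasma cell markers and 8 of 9 fibroblast markers, with array means of 6.29 to 7.42 and 8.36 to 8.58 in controls and 7.10 to 7.54 and 8.37 to 8.78 in mutants. The 12 striated muscle markers averaged 3.85 to 4.15 on all arrays. The part of RNA integrity, of cell content and of the remaining Hnf4a signal in the respiratory chain values was not tested.

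**Figure D3:**
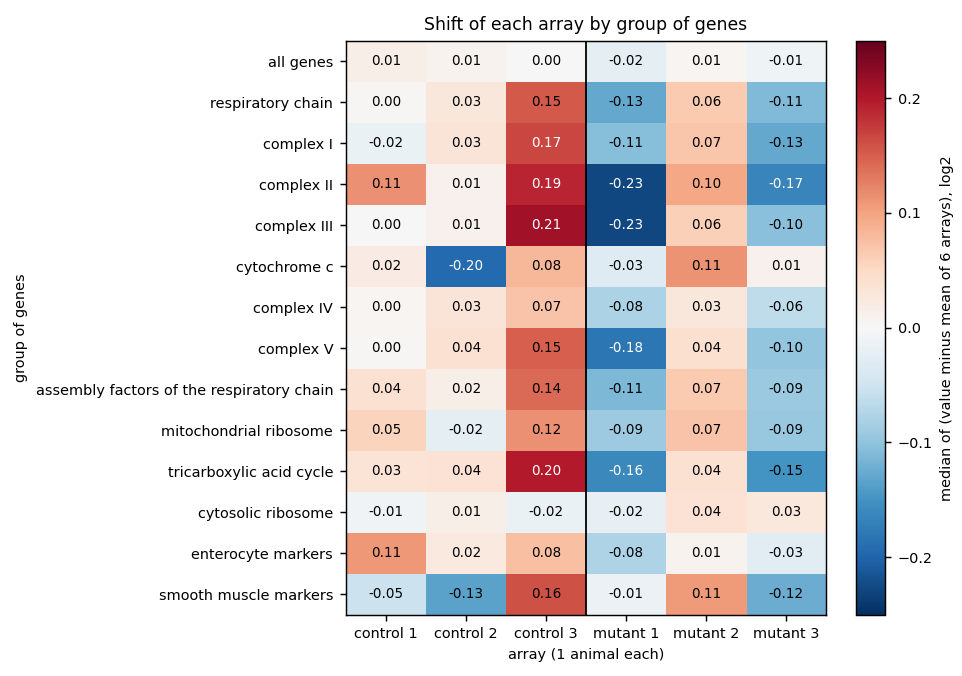
Median, over the genes of each group (rows), of the value on an array minus the gene's mean over the 6 arrays (log2, colour and printed number), for 3 control and 3 mutant arrays (columns). Respiratory chain rows are low in mutants 1 and 3 and high in control 3, while the cytosolic ribosome row runs from -0.021 to 0.036.

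Other genes of oxidative metabolism were taken from lists, and 0 genes passed the test on any of them. Assembly factors of the chain had 33 of 43 genes below the control mean (median -0.12), mitochondrial ribosomal proteins 59 of 76 (median -0.098) and the tricarboxylic acid cycle 15 of 18 (median -0.18). The carriers, uncouplers and inhibitors had 12 of 17 below (median -0.14), and the enzymes that feed or make ubiquinone 12 of 14 (median -0.14). Regulators of mitochondrial biogenesis and DNA expression had 14 of 20 below (median -0.091). Of the coactivator genes on that list, Ppargc1a differed by -0.29, Ppargc1b by -0.18 and Pprc1 by 0.41, and of the receptor genes Esrra by -0.34 and Esrrg by 0.59, with adjusted p from 0.221 to 0.845. Of the other factors whose letters were searched in promoters, Nrf1 differed by 0.09 and Yy1 by 0.15. The GABP genes Gabpa and Gabpb1 differed by -0.16 and -0.007, and adjusted p of these 4 genes ran from 0.661 to 0.993. Glycolysis and lactate genes had 8 of 14 below (median -0.082). The cytosolic ribosome, which encodes other abundant housekeeping proteins, had 19 of 49 below and a median of 0.011. Of the 13 protein genes of mitochondrial DNA, 1 was measured, ND5 of complex I, which differed by -0.18 ± 0.11 SE (adjusted p = 0.597).

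Some genes of these lists differed by more than any of the subunits. Slc25a13, the mitochondrial aspartate-glutamate carrier, read 6.68, 6.60 and 6.61 in controls and 5.14, 5.82 and 5.72 in mutants, a difference of -1.07 ± 0.18 SE that just missed the threshold (adjusted p = 0.0521). Sco2, a copper chaperone needed to build complex IV, read 8.41, 8.77 and 9.18 in controls and 7.92, 8.02 and 7.54 in mutants (-0.96 ± 0.21 SE, adjusted p = 0.109). The groups did not overlap in either gene. Both were named for the smallest p on their lists, which favours genes without overlap. Over the whole lists mutant 2 lay above the mean of the 6 arrays as it did for the subunits, by a median of 0.053 for the carriers and 0.066 for the assembly factors.

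The genes of smallest p on the other lists included Idh2, the mitochondrial NADP-dependent isocitrate dehydrogenase (-0.75, adjusted p = 0.191), and Polg2, the accessory subunit of the mitochondrial DNA polymerase (-0.69, adjusted p = 0.152). They also included Slc25a10, the dicarboxylate carrier (-0.60, adjusted p = 0.242), Esrra, a nuclear receptor that drives respiratory chain genes (-0.34, adjusted p = 0.221), and Pdss2, of ubiquinone synthesis (-0.40, adjusted p = 0.157). Chosen by the same rule were Coa7 (-0.37), Idh3b (-0.28), the lactate transporter gene Slc16a1 (-0.41), and Mrpl34 and Mrpl43 of the mitochondrial ribosome (-0.40 and -0.28), with adjusted p from 0.225 to 0.34. In the other direction, the hexokinase gene Hk1 differed by 0.64 (adjusted p = 0.0907) and Gpd2, which passes electrons from glycerol phosphate to ubiquinone, by 0.44 (adjusted p = 0.253), with all mutants above all controls. Rpl27a and Rps4l, of the cytosolic ribosome list, differed by 0.33 and 0.60 (adjusted p = 0.275 and 0.362).

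**Figure D4:**
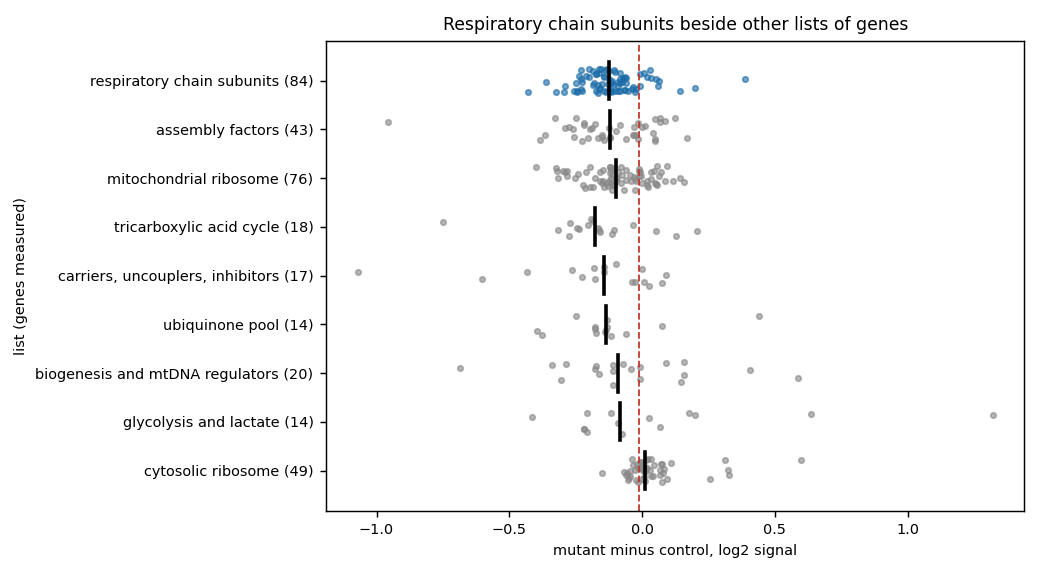
Log2 difference between mutants and controls (horizontal axis) of every gene measured on each list (points, with random vertical spread for legibility), the list medians (black bars) and the median of all genes (dashed red line, -0.013). Subunits lie in a narrow band around -0.12, while single genes of other lists reach from -1.07 to beyond 1, the highest being the hexokinase gene Hk2 at 1.32.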

How the data were processed

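The deposited table holds the authors' log2 signal for each of 45101 Affymetrix probe sets and 6 arrays. No source used here names its background correction, summarisation or normalisation. That the scale is log2 was inferred from the range of the values, 1.80 to 14.5. Array medians lay between 3.93 and 3.98, so values were used as deposited. After 64 control probe sets were left out, 34945 probe sets had 1 gene symbol, and each gene took the brightest of them (highest mean over the 6 arrays).

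Groups were compared over all 18193 genes with limma 3.58.1 (lmFit, eBayes) in R 4.3.3. The model held the group alone, tests were two-sided, p-values were adjusted by Benjamini-Hochberg, and the procedure was tested on simulated data. Those data had independent noise for each gene and array, so they do not cover array shifts shared by many genes. SE and 95% intervals come from this fit. The number of arrays limits the precision. Many subunits have near-identical pseudogenes: 6 members rest on probe sets marked by Affymetrix as open to cross-hybridisation (_x_at) and 13 on probe sets shared by several transcripts (_s_at).

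The members and lists were chosen with earlier results of these data known. The genes named are the 5 with the smallest p in complexes I, III, IV and V, all of complex II and cytochrome c, the isoforms, and the 2 with the smallest p on each other pathway list. Others (Ndufv3, the complex I genes above the control mean, Hk2, Cidea, Ucp1, Ppargc1a, Ppargc1b, Pprc1 and Esrrg) were named after their values were seen. So were Nrf1, Yy1, Gabpa, Gabpb1, Fabp1 and Cdh1. Alternatives covered normalisation, low values, the choice of probe set, the variance model, array weights, the replicate number as a block and the omission of arrays. All 84 Entrez identifiers matched the RefSeq table, which was used for names and promoter windows.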

Additional observations from a re-analysis of the deposited data

How the results depend on the processing

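Under each of the 16 alternative fits, 0 respiratory chain genes were called, and the median difference of the chain and of complexes I, II, III, IV and V stayed negative and moved by less than the spread between replicates. The chain median ran from -0.19 (without mutant 2) to -0.074 (quantile normalisation). Of 84 members, 67 to 77 lay below the control mean. With limma's p left unadjusted, 4 members and 2200 of all genes were below 0.05. The members numbered 1 to 8 in the alternatives except without mutant 2, where they were 13. The number of members with all mutants below all controls was 13 (against 10.2% of all genes), and 6 after quantile normalisation (9.36%), 50 without control 3 and mutant 2 (22.8%), and 13 to 49 with 1 array left out (14.6% to 17.5%). The number of all genes called was 96, and 8 with a floor at the 20th percentile, 150 with array weights, 4 without control 3 and mutant 2, and 22 to 96 with 1 array left out. Fewer arrays enter the last of these fits, and the cause of the other changes was not tested. The 6 dim members have differences near background signal, and 3 animals a group leave intervals wider than most differences given.

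With the replicate number as a replicate block, 62 of all genes and 0 members were called. Deviations of same-numbered arrays from their group means correlated at 0.073, 0.069 and -0.018, and not every array correlated best with the one of its own number. No pairing by number was thus visible, though values near 0 cannot exclude that the animals were paired.

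Of 38 named members, 26 kept their sign in all alternatives they entered, and 0 were called in any. Among the others, the most variable probe set gave 0.073 for Uqcrq, 0.19 for Cox5b (a dim probe set), 0.037 for Atp5o and -0.032 for Cycs, and the mean of probe sets gave -0.0086 for Cycs and -0.10 for Cox6a2. Sdhc was 0.037 after quantile normalisation, Cox6a2 -0.0046 with array weights and Cox8c 0.037 without control 3 and mutant 2. With 1 array left out, values ran from -0.021 to 0.12 for Cycs, -0.15 to 0.074 for Sdhc, -0.13 to 0.052 for Cox4i2, -0.094 to 0.017 for Cox6a1, -0.15 to 0.13 for Cox6a2, -0.10 to 0.17 for Cox6b2, -0.21 to 0.034 for Cox7a1, -0.11 to 0.0016 for Cox7a2 and -0.19 to 0.0295 for Cox8c.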
